A study of Mus musculus with 6 samples.

Results

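H19, its inner microRNA gene Mir675 and the neighbouring growth factor gene Igf2 were followed in mouse epiblast-like cells (EpiLCs) without functional Smad2 and Smad3, together with the receptors and RNA-binding proteins of the insulin-like growth factor (Igf) system. The group holds 10 genes of the 24288 gene symbols in the data: H19, Mir675, Igf2, Igf2r, Igf2bp1, Igf2bp2, Igf2bp3, Igf1r, Insr and Igf1. It was chosen by gene name around H19 and Mir675, which were themselves chosen by their measured rise in these libraries. The values of H19 and Mir675 are therefore a description and carry no test. For each gene the row with the most reads over all libraries was used. Of the 10 genes, 9 passed the filter on low values and Igf1 did not, which leaves 7 tested genes other than H19 and Mir675.

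RNA sequencing compared wild-type (WT) EpiLCs with Smad2/3 double knockout (DKO) EpiLCs, with 3 libraries per genotype from independent differentiations. The WT cells were the CCE embryonic stem cell line on a 129/Sv//Ev background. The DKO cells were 1 clone, made from embryonic stem cells homozygous for a Smad2 null allele by deleting the first exon of Smad3 with the CRISPR/Cas9 nickase. Both were grown in serum-free medium with Mek and Gsk3 inhibitors and LIF, then moved for 2 days onto fibronectin in medium with Fgf2, activin A and knockout serum replacement. Since each genotype was represented by 1 line, the loss of Smad2/3 and other differences between the lines cannot be told apart.

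Smad2 and Smad3 carry Nodal and activin signals to the nucleus. H19 and Igf2 are imprinted neighbours on distal chromosome 7: H19, a long non-coding RNA, is transcribed from the maternal copy and Igf2 from the paternal copy, and both use enhancers on the far side of H19. Igf2 protein signals growth through the receptor kinases Igf1r and Insr, while Igf2r binds it and takes it to the lysosome. Igf2bp1, Igf2bp2 and Igf2bp3 are RNA-binding proteins named after their binding to Igf2 mRNA. H19 and Igf2 are abundant in extra-embryonic tissues, and H19 is used as a marker of visceral endoderm. The libraries do not separate maternal from paternal RNA.

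Depth was similar, from 57644143 to 63046034 reads per library over 1 row per gene, and values are reads divided by 1 size factor per library (normalized reads). The 3 DKO libraries held 23.6 ± 6.16 normalized reads of Smad3 (SD, n = 3 in each genotype) and the WT libraries 839 ± 37.0. Smad2 was at 5062 ± 109 in DKO against 4520 ± 86.3, so its counts do not check the Smad2 allele. Of 6 EpiLC markers 1 was called higher and 2 lower. Pou5f1 (21850 ± 496 in WT, 20760 ± 344 in DKO) and Dnmt3b (70390 ± 1336 and 65420 ± 388) stayed under the fold threshold, whereas Fgf5 fell from 3235 ± 12.6 to 798 ± 23.0 and Sox2 rose from 2798 ± 46.0 to 7741 ± 110.0 (limma, adjusted p = 1.31e-24 and 3.16e-24). A gene was called changed at an adjusted p under 0.05 and a fold above 1.5. By this rule 15.4% of the 17038 genes tested were called, 7.35% higher in DKO and 8.04% lower. At any fold 53.4% had an adjusted p under 0.05.

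Mir675 is an 84-base hairpin gene inside the first exon of H19, on the same strand, and its sequences are shown because they are the part of H19 that gives rise to a small regulatory RNA. The hairpin lies at chr7:142577064-142577147 on the minus strand (GRCm38.p6, the mm10 assembly, from RefSeq). In the hairpin line capitals mark the mature arms, and in the arm lines capitals mark the seed, bases 2 to 8, by which a microRNA recognises its targets.
Mir675 hairpin: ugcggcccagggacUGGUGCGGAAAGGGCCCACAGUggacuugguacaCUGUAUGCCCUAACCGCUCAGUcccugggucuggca
miR-675-5p: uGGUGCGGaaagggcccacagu
miR-675-3p: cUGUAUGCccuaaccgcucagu
Among 1679 mature mouse microRNAs in the RefSeq table, 0 others carried either seed. The complement of the 3p seed, GCATACA, occurred in the 3′ UTR of both receptor kinase genes. The Igf1r 3′ UTR (7267 bases) held it in 2 places and the Insr 3′ UTR (4747 bases) in 1 place, shown here from the first place in each, with capitals on the match.
Igf1r site, from UTR base 505: ctcctcatcaccccGCATACAc
Insr site, from UTR base 3546: ttcaatgatgtcaaGCATACAt
Among 3′ UTRs of similar length, 37.2% and 23.3% held these letters. The complement of the 5p seed, CCGCACC, was in none of the 3′ UTRs searched for the 8 protein-coding genes of the group, each from a single transcript. For Igf1 that 3′ UTR had 177 bases, and its longer isoforms were not searched. The matches are a description of the letters in these windows, and total RNA libraries of this kind do not measure the mature microRNA.

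H19 was scarce in WT EpiLCs and abundant in DKO EpiLCs. H19 (NR_130973, chromosome 7, 142575529 to 142578143, minus strand) stood at 128, 107 and 107 normalized reads in the 3 WT libraries and at 6372, 6199 and 5472 in the 3 DKO libraries. The lowest DKO library was 42.8 times the highest WT library. Mean levels were 6014 ± 478 against 114 ± 12.1 (SD, n = 3 in each genotype). On the log2(value + 1) scale used throughout, the log2 fold change was 5.71 ± 0.06 (SE). These values rest on 188 to 238 reads per WT library and 10557 to 11840 per DKO library. The rows of 2 H19 isoforms span the same gene body and hold identical counts, so isoforms cannot be told apart.

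Reads over the Mir675 hairpin followed H19, of which they are a part. Mir675 (NR_030416) had 10.2, 7.97 and 3.20 normalized reads in the WT libraries against 449, 452 and 407 in the DKO libraries (log2 fold change 5.86 ± 0.23, SE). As a share of H19 reads, Mir675 took 7.05%, 7.29% and 7.44% in the DKO libraries, in Wilson 95% intervals between 6.60% and 7.95%. In WT the shares were 7.98%, 7.45% and 3.00%, the last from 6 reads with an interval of 1.38% to 6.39%. The shares of WT replicates 1 and 2 were thus near those of DKO, and that of WT replicate 3 was lower. Means were 6.14% ± 2.74 in WT and 7.26% ± 0.194 in DKO (SD). With 6 to 19 Mir675 reads per WT library, an equal share at both levels of H19 was not shown. Without molecular identifiers several reads can stem from 1 molecule. The libraries were also paired-end, and the counts of Igf1 and Igf2os were all even, so both mates of a pair may have been counted. The intervals take each read as independent and may thus be too narrow even for counting error.

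**Figure D1:**
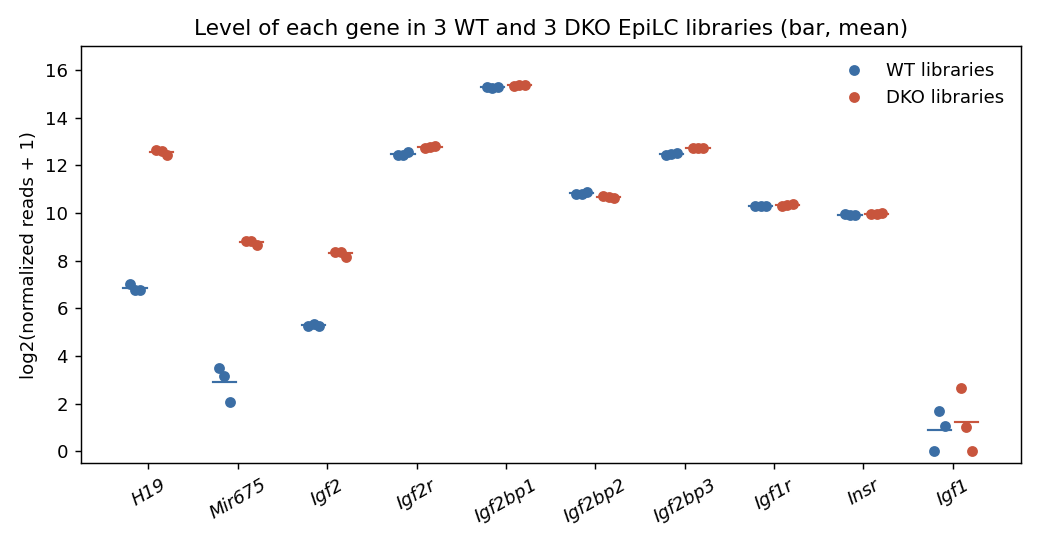
Level of each of the 10 genes in the 3 WT (blue) and 3 DKO (red) libraries on the log2(normalized reads + 1) scale, with a bar at each mean. H19, Mir675 and Igf2 stand clearly apart between genotypes, while Igf1r libraries overlap and Igf1 lies near 0 reads in both.

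Igf2 rose with H19 but by a smaller factor. Igf2, the fetal growth factor ligand (NM_001122736, chromosome 7, 142650769 to 142661305, minus strand), held 70 reads in each WT library, or 37.6, 39.8 and 37.3 normalized reads. The DKO libraries held 330, 330 and 286 normalized reads, from 552 to 629 reads. No DKO library came near a WT library: the lowest was 7.18 times the highest. The log2 fold change was 3.01 ± 0.11 (SE, limma, adjusted p = 5.47e-18), an 8.05-fold rise with a 95% interval of 6.86 to 9.45. It was called under each of the alternatives run.

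The balance between these neighbours therefore differed between genotypes. WT libraries held 3.40, 2.69 and 2.86 H19 reads for each Igf2 read. DKO libraries held 19.3, 18.8 and 19.1. Both H19 and Igf2 were lowest among the DKO libraries in replicate 3, while their ratio hardly varied among these libraries. The ratio was not tested, since H19 was chosen for its difference.

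**Figure D2:**
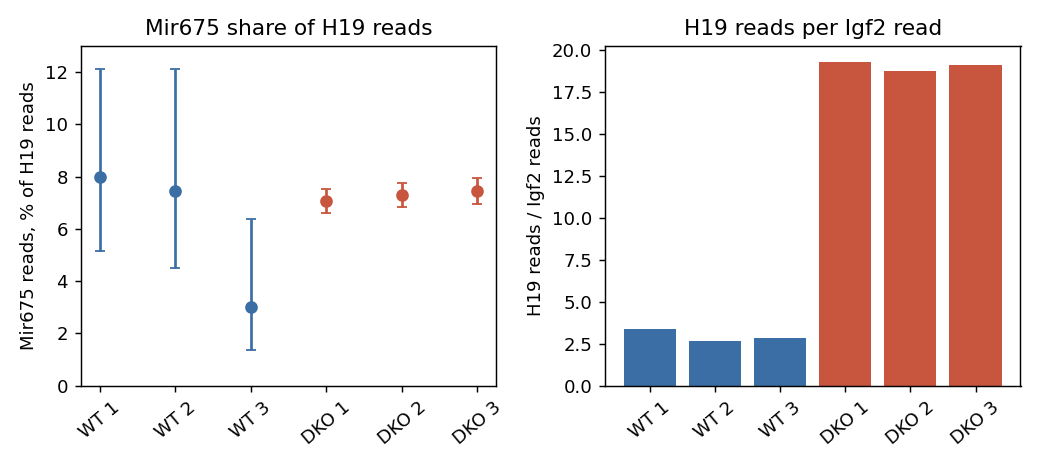
Left, Mir675 reads as a percentage of H19 reads per library with Wilson 95% intervals; right, H19 reads per Igf2 read. The share lies between 7.05% and 7.98% in all libraries but WT replicate 3 (3.00%), and the ratio is 2.69 to 3.40 in WT and 18.8 to 19.3 in DKO.

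Nearly all reads counted in the Igf2 rows lay downstream of the start of the shortest isoform. Of the 3 Igf2 rows, which share their end and differ in their start, the longest begins 3.81 kb upstream of the shortest. That extra stretch added 0, 0 and 2 reads in the WT libraries and 11, 8 and 16 in the DKO libraries, or 0.952% and 1.95% of the Igf2 reads of each genotype. It also contains the part of the row that lies under the antisense transcript Igf2os. Strand use in counting was not stated, but the 1.82 kb nearest the upstream end, which include this overlap, held 2 of the WT and 16 of the DKO reads. Since the rows overlap, the share of reads does not tell which start was used. A further Igf2 start, at 142666816, lies upstream of all 3 rows, so reads beyond them were not counted. The start of the shortest isoform is shown because nearly all counted reads of both genotypes lie downstream of it. It spans chr7:142657447-142657746 on the minus strand (GRCm38.p6, from RefSeq), from 250 bases before the start to 50 after it, with GC boxes (GGGCGG, either strand) in capitals.
Igf2 promoter: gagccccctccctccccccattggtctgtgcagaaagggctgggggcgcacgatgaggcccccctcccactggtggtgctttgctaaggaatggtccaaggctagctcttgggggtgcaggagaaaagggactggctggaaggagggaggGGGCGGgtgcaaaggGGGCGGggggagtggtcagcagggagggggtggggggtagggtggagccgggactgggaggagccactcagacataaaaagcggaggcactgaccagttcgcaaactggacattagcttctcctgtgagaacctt
This window held 2 GC boxes, while 35.7% of 32851 promoters of the same length held at least 1, and 7 CG dinucleotides, the median over all of them. H19 and Mir675 had no entry in the promoter table.

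Several other genes around H19 and Igf2 were also higher in DKO. A list of 14 neighbours was made with earlier results of these data known, and of its 12 tested genes 8 were called higher and 0 lower, beside 7.35% higher over all genes. Its median log2 fold change was 1.35, against 1e-04 over all genes tested and 0.16 over all 29 tested genes within 1 Mb of the H19 start, which include genes with lower mean values in DKO such as Cdkn1c (-0.33) and Phlda2 (-0.42), both chosen after their values were seen. The other 2, Nctc1 and Ins2, stayed at 3 reads or fewer in every library. Tnnt3, a fast skeletal muscle troponin gene whose midpoint lies 70.7 kb from the H19 start, held 2, 4 and 2 reads in WT and 102, 97 and 80 in DKO (log2 fold change 4.37 ± 0.33, adjusted p = 1.65e-11). Lsp1, a leukocyte actin-binding protein, rose from 5.73 ± 4.02 to 23.3 ± 7.72 normalized reads, and the synaptotagmin gene Syt8 from 3.42 ± 3.13 to 12.5 ± 2.25. Tnni2, a fast troponin I gene, was called at 3.62 ± 1.59 and 8.82 ± 2.83 normalized reads, but lost the call with DESeq2, at a pseudocount of 10 and without any 1 of 4 libraries (WT replicates 2 and 3, DKO replicates 1 and 2, adjusted p from 0.0603 to 0.153). These levels are low beside that of H19.

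On the Igf2 side, Igf2os rose from 9.46 ± 1.15 to 36.2 ± 6.91 normalized reads. Igf2os overlaps Igf2 on the other strand, and the part of Igf2 reads in its value was not tested. Th, tyrosine hydroxylase of catecholamine synthesis, rose from 32.2 ± 11.7 to 81.3 ± 9.23. Ascl2, a maternally expressed transcription factor of the adjoining imprinted domain that is needed in the trophoblast lineage, rose from 77.4, 86.5 and 75.7 to 270, 267 and 199 normalized reads (log2 fold change 1.59 ± 0.12, adjusted p = 6.20e-12). The tetraspanin gene Tspan32 rose from 43.6 ± 3.82 to 111 ± 5.62. The widely expressed neighbours Ctsd, Mrpl23, Cd81 and Tssc4 were not called, with log2 fold changes between -0.01 and 0.30.

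**Figure D3:**
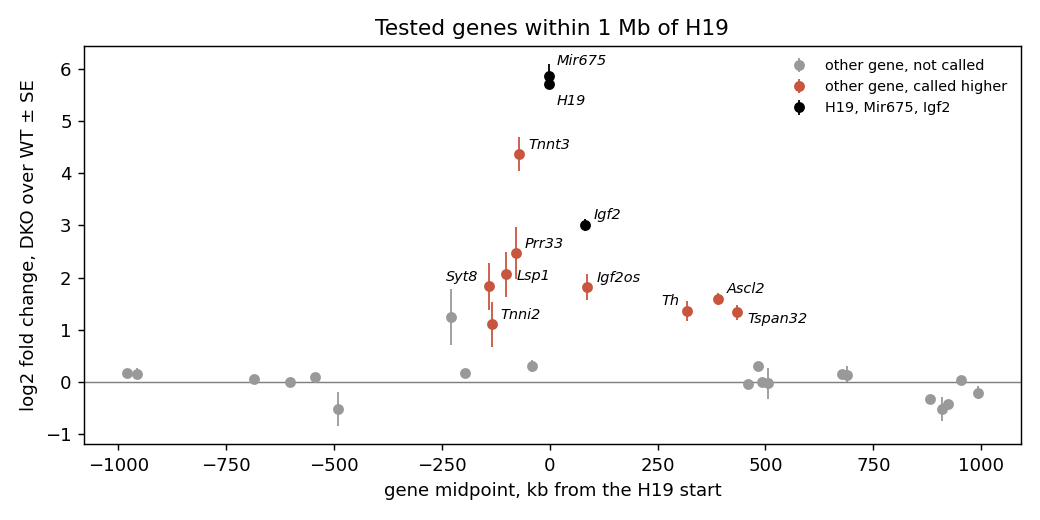
Log2 fold change with its SE (DKO over WT) of each tested gene within 1 Mb of the H19 start, by the distance of its midpoint in kb, negative toward lower coordinates. Called genes (red) run from Syt8 at -140.5 kb to Tspan32 at 434.1 kb, and H19, Mir675 and Igf2 (black) lie among them.

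No factor in a list of those known to act on the H19 imprint was called. Of 10 such genes, among them Ctcf, which binds the control region between H19 and Igf2, and Zfp57 and Trim28, which keep its methylation, 0 were called by limma, edgeR or DESeq2, while 7 had an unadjusted p under 0.05 and the same number an adjusted one at any fold. Over all genes 15.4% were called and 53.4% had an adjusted p under 0.05. Ctcf had 8634 ± 128 normalized reads in the WT libraries and 8181 ± 18.9 in the DKO libraries. Zfp57 was at 3042 ± 199.7 and 4395 ± 74.8, a log2 fold change of 0.53 ± 0.04 (adjusted p = 1.54e-12), and passed the fold threshold only when WT replicate 3 was left out (0.59). Likewise 0 of 9 genes for microRNA processing or for its control were called by any of these tools, with 7 at an unadjusted p under 0.05. The largest differences in that list were those of Lin28a (24760 ± 272 and 33380 ± 712 normalized reads, log2 fold change 0.43, adjusted p = 4.17e-15) and Lin28b (4918 ± 139 and 3892 ± 59.3, -0.34, adjusted p = 2.14e-10), which hold back the maturation of let-7 microRNAs. Drosha, which cuts hairpins out of primary transcripts, was at 8945 ± 194 and 9635 ± 169 normalized reads. Elavl1, an RNA-binding protein known to block the cutting of the Mir675 hairpin, was at 8579 ± 242 and 7696 ± 219.

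The receptors of the ligands changed far less than Igf2. Igf2r, the clearance receptor and itself an imprinted gene (NM_010515, chromosome 17, 12682406 to 12769664), stood at 5587, 5561 and 5974 normalized reads in WT and 6720, 6866 and 7220 in DKO. The groups did not overlap, and the log2 fold change of 0.28 ± 0.03 (adjusted p = 2.05e-08) corresponds to a fold of 1.22, below the threshold. Its antisense partner Airn, which silences the paternal copy of Igf2r, rose from 179, 178 and 184 to 303, 285 and 313 normalized reads (log2 fold change 0.73 ± 0.08, adjusted p = 1.24e-08). Airn overlaps Igf2r over 28.4 kb. Per kb of gene body, Airn had 1.52 normalized reads in WT libraries and 2.53 in DKO libraries, against 65.4 and 79.5 for Igf2r. Strand use in counting was not stated, and reads within the overlap were not counted apart. Neither the part of Airn in the Igf2r value nor that of the denser Igf2r in the Airn value was tested. The shortest Airn row, which holds the overlap, had 316 of the 333 reads of the longest in WT replicate 1. In DKO replicate 1 it had 549 of 563. The neighbour Slc22a3 was at 27.6 ± 3.38 and 18.3 ± 3.76 normalized reads and was not called, though it was with edgeR (adjusted p = 0.0466) and at a pseudocount of 0.1 (adjusted p = 0.0454), and without WT replicate 3 (adjusted p = 0.0408) or DKO replicate 1 (adjusted p = 0.0211).

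No difference was shown for the receptor kinases. Igf1r (NM_010513, chromosome 7, 67952827 to 68233668), the main signalling receptor for Igf1 and Igf2, had 1260, 1263 and 1259 normalized reads in WT and 1245, 1287 and 1307 in DKO. These groups overlapped, with a log2 fold change of 0.02 and a 95% interval of -0.06 to 0.10 (limma, adjusted p = 0.671). Insr, the insulin receptor (NM_010568, chromosome 8, 3150922 to 3279617), had 979, 975 and 954 against 982, 990 and 1013, without overlap. Its log2 fold change was 0.04 with an interval of -0.05 to 0.12 (adjusted p = 0.473). As fold changes, these intervals run from 0.96 to 1.07 for Igf1r and from 0.966 to 1.09 for Insr. Igf1r reads numbered 1.30 ± 0.02 per Insr read in WT and 1.29 ± 0.02 in DKO.

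The other ligands were not detectable or nearly so. Igf1 (NM_001111274, chromosome 10) held 0, 4 and 2 reads in WT and 10, 2 and 0 in DKO, and no difference could be shown at this depth. Ins1 and Ins2, which encode insulin, were at or below 3 reads in every library. Igf2 was thus the sole ligand gene among Igf1, Igf2, Ins1 and Ins2 with more than 10 reads in any library.

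The Igf2 mRNA-binding proteins were expressed at high and similar levels in both genotypes. Igf2bp1 (NM_009951, chromosome 11) had 39385, 39133 and 39890 normalized reads in WT and 41359, 42151 and 41589 in DKO. The groups did not overlap, but the log2 fold change was 0.08 ± 0.02 (adjusted p = 0.00169). Igf2bp3 (NM_023670, chromosome 6) was higher in DKO, with 5540, 5607 and 5765 normalized reads in WT and 6808, 6833 and 6698 in DKO (log2 fold change 0.27 ± 0.03, adjusted p = 2.87e-09). Igf2bp2 (NM_183029, chromosome 16) went the other way, with 1790, 1786 and 1879 against 1651, 1639 and 1578 (log2 fold change -0.16 ± 0.04, adjusted p = 0.000486). None of the 3 passed the fold threshold. Igf2bp1 made up 84.1% ± 0.195 of the normalized reads of the 3 genes in WT and 83.2% ± 0.193 in DKO.

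**Figure D4:**
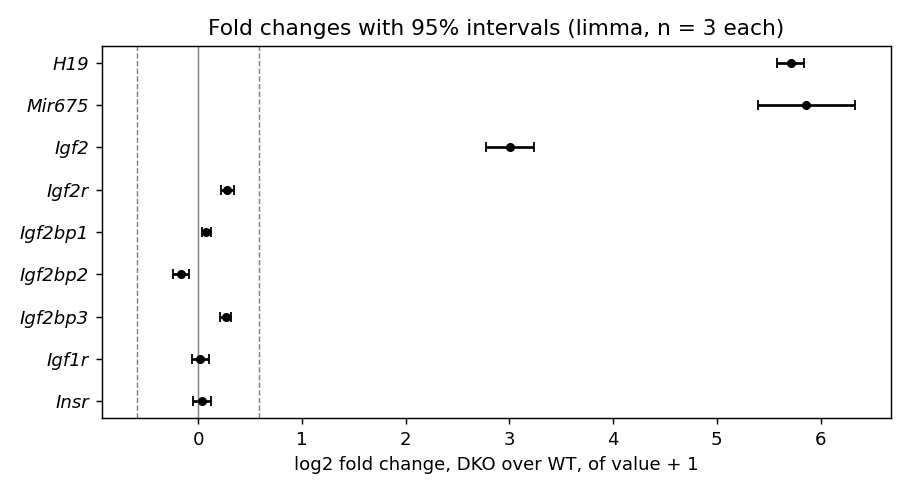
Log2 fold changes (DKO over WT, limma on log2(value + 1), n = 3 each) with 95% intervals for the 9 genes that passed the filter; dashed lines mark a fold of 1.5 either way. Igf2 lies beyond the line, and the other 6 tested genes lie between the lines. H19 and Mir675 also lie beyond it, but they were chosen by their measured rise. Their intervals are therefore a description and no test.

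Among the 7 tested genes other than H19 and Mir675, 1 was called higher and 0 lower, against 7.35% and 8.04% of all genes tested. At any fold, 4 were higher and 1 lower at an adjusted p under 0.05, against 53.4% of all genes in either direction. With libraries this close, most such differences were small. Between libraries of a genotype, the SD of a gene was at the median 3.16% of its mean for WT and 3.07% for DKO, over 11930 genes whose mean reached 100 normalized reads.

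The order of levels, per kb of gene body, also differed. In WT, Igf2bp1 led with 809 ± 7.91 normalized reads per kb, followed by Igf2r with 65.4 ± 2.65. H19 (43.5 ± 4.64) and Igf2bp3 (43.5 ± 0.891) came next and did not differ beyond their spread. Below them were Igf2bp2 (17.4 ± 0.506), Insr (7.53 ± 0.106), Igf1r (4.49 ± 0.00839) and Igf2 (3.63 ± 0.13), which were each separated by more than their spread. Igf1 was last with 0.016 ± 0.0164. Mir675 (84.8 ± 42.6) is so short that its place is not distinct from those of Igf2r and H19. In DKO, H19 led the genes longer than a hairpin with 2300.0 ± 183 normalized reads per kb, above Igf2bp1 with 855 ± 8.36, and Igf2 reached 29.96 ± 2.43, between Igf2bp3 (52.3 ± 0.557) and Igf2bp2 (15.6 ± 0.371). Gene bodies include introns, so a gene with long introns has a low level per kb for its mRNA.

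Among the genes for proteins that bind Igfs outside the cell, Igfbp4, Igfbp5 and Igfbpl1 fell. Of 12 tested genes for Igf binding and release, 1 was called higher and 4 lower, beside 7.35% and 8.04% of all genes, with a median log2 fold change of -0.02 against 1e-04 over all genes. Igfbp4, which holds Igfs away from their receptors, fell from 269, 270 and 260 to 91.5, 96.1 and 103 normalized reads (log2 fold change -1.45 ± 0.09, adjusted p = 6.28e-13). Stc2, an inhibitor of the protease that cuts Igfbp4, fell from 563, 561 and 630 to 155, 146 and 163 (-1.91 ± 0.07, adjusted p = 1.21e-17). Igfbp5 fell from 247 ± 7.39 to 148 ± 9.89 and Igfbpl1 from 106 ± 10.1 to 61.2 ± 0.946. Pappa2, a protease that cuts Igf binding proteins, was the gene called higher, from 2, 10 and 2 reads in WT to 18, 24 and 21 in DKO. Igfbp2, the most abundant of them, was at 12710 ± 407 and 9425 ± 84.5 normalized reads and stayed under the fold threshold. Igfbp3 was at 825 ± 32.0 and 1227 ± 64.5 (log2 fold change 0.57 ± 0.05), a value called only without WT replicate 2 (0.60) or DKO replicate 3 (0.61).

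Inside the cell, some adaptors that dock on Igf1r and Insr fell. Of 36 tested genes from the receptors to Akt and mTOR, 2 were called higher, 6 lower and 28 not, beside 7.35% higher and 8.04% lower over all genes, with a median log2 fold change of -0.04. The adaptors Grb2 (0.22), Shc1 (-0.20) and Grb14 (-0.35) were not called. Grb10, an imprinted adaptor that restrains both receptors, fell from 10600, 10420 and 11170 to 4362, 4444 and 4361 normalized reads (log2 fold change -1.29 ± 0.03, adjusted p = 4.56e-23). Of the docking proteins, Irs1 fell from 155 ± 18.0 to 52.6 ± 2.43, Irs3 from 58.7 ± 12.1 to 18.98 ± 1.44 and Irs4 from 330 ± 18.3 to 75.8 ± 12.7. Irs2, the most abundant of the 4 in WT, was at 833 ± 34.4 and 590 ± 26.5 (log2 fold change -0.50 ± 0.05) and was not called. The lipid phosphatase gene Inppl1 also fell, from 6074 ± 103 to 3469 ± 110.0.

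The genes of this list called higher were the PI3-kinase subunits Pik3cd (638 ± 5.51 to 1177 ± 25.9) and Pik3r3 (861 ± 55.2 to 1394 ± 25.9). Akt1, Akt2, Tsc1, Tsc2, Mtor, Rptor and Rictor were not called. Adaptors with inhibiting and with activating roles thus both fell, in a list whose median stayed near 0.

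**Figure D5:**
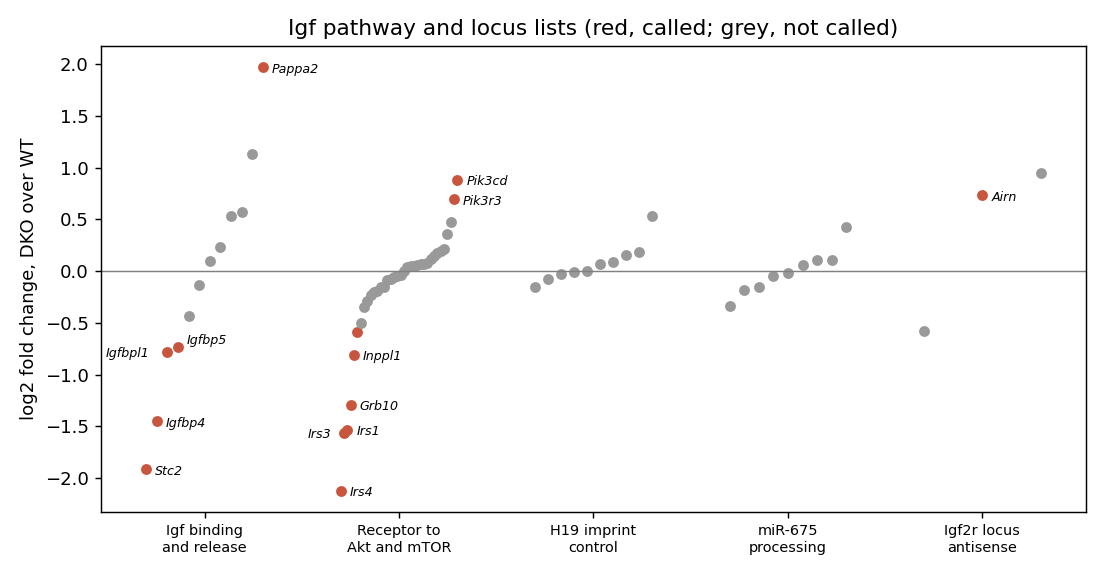
Log2 fold change (DKO over WT) of each tested gene in the lists of Igf binding and release, receptor relay to Akt and mTOR, H19 imprint control, microRNA-675 processing and Igf2r locus antisense, with called genes in red and others in grey. The called genes of the first 2 lists are mostly below 0, no gene is called in the imprint control and processing lists, and Airn is called in the last.

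Most tested trophoblast markers and some extra-embryonic endoderm markers rose along with H19 and Igf2. Of 10 tested trophoblast markers 9 were called higher, beside 7.35% of all genes tested. The summed level of all 12 markers went from between 1646 and 1755 normalized reads in WT to between 2750 and 3113 in DKO. The largest part of these sums was Krt18 (1158 ± 44.7 and 1570 ± 61.7), the tested marker that was not called. Tfap2c, a regulator of trophoblast, rose from 67.5 ± 1.14 to 390 ± 51.3, and Gata3 from 3.25 ± 1.35 to 116 ± 10.7. Ascl2 is in this list as well as among the neighbours of Igf2. The defining markers Elf5 (0.716 ± 1.24 and 1.04 ± 1.80) and Tpbpa were at or near 0 in both genotypes. Calls were lost without 1 library, or under another setting, for Eomes, Krt7 and Plac1.

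Against 7.35% higher and 8.04% lower of all genes tested, 5 of 12 tested extra-embryonic endoderm markers were called higher and 0 lower. Their summed level over all 15 went from between 3657 and 3817 to between 6669 and 6956 normalized reads, mostly through Sparc (3134 ± 61.2 to 6071 ± 218). Without Sparc the sums were 565 to 626 in WT and 749 to 849 in DKO. Sox17 (16.4 ± 2.64 and 10.9 ± 3.61), Afp (9.15 ± 2.00 and 7.001 ± 2.92) and Foxa2 (14.8 ± 6.61 and 12.0 ± 5.40) were low in both genotypes and not called, and Ttr was at or below 3 reads in every library. Dab2 was lower in DKO but under the fold threshold, at 198 ± 17.2 and 153.5 ± 14.4 (log2 fold change -0.37 ± 0.10, limma, adjusted p = 0.00256). The part of trophoblast and endoderm cells in the H19 and Igf2 values was not tested. In bulk RNA, a change in the number of cells that express a gene and a change in RNA per cell cannot be told apart.

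Markers of other lineages did not move as a group in the direction of H19. Over all genes tested, 7.35% were called higher and 8.04% lower. Of 4 tested mesoderm markers 3 were called lower, including T (45.8 ± 1.91 to 15.4 ± 4.89), and Kdr was called higher. The call of Tbx6 among them was lost under several settings, with DESeq2 at an adjusted p of 0.091. Of 6 fibroblast markers 2 were called lower and 0 higher, and of 5 neural markers 1 was called in each direction. The fibroblast list sum was 1675 to 1777 normalized reads in WT and 570 to 629 in DKO, with Dcn at 1330 ± 51.3 and 300.4 ± 16.9. The mesoderm sums were 104 to 112 and 89.8 to 91.0, and the neural sums 2026 to 2123 and 1769 to 1795.

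The genes whose pattern over the 6 libraries was most like that of H19 were Id1, BC052688 and Id3. Likeness was the root mean square difference of log2(value + 1), each gene centred on its mean, over the same 11930 genes. Id1, a direct target of Bmp signals, differed from H19 by 0.42 and went from 48.5 ± 3.36 to 4494 ± 283. The non-coding BC052688 differed by 0.43 and Id3, also a Bmp target, by 0.66. Among the 3 genes closest to Igf2 was the autophagy receptor gene Calcoco2, which differed from it by 0.17 and went from 76.4 ± 16.4 to 681 ± 67.4. Such likeness over 2 groups mostly ranks genes by the size of their difference.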

How the data were processed

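Day 2 EpiLCs were profiled by strand-specific, ribosome-depleted RNA sequencing, 3 differentiations per genotype. The authors removed ribosomal reads with bowtie2, aligned to mm10 with STAR, removed duplicates with Samtools and counted reads over refGene gene bodies, read here as including introns. Versions and use of strand are not given in the sources used here. The deposited signal is a read count divided by 1 DESeq2 size factor per library, and 100% of values came out as whole reads (tolerance 0.05). A second deposited table holds only the authors' comparison and was not used. Rows without a symbol (138, 0.517% of reads) were left out.

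The main test was limma 3.58.1 (R 4.3.3) with a mean-variance trend on log2(value + 1), on 1 row per symbol passing filterByExpr of edgeR 4.0.16, with Benjamini-Hochberg adjustment over 17038 genes. Changed means adjusted p under 0.05 and fold above 1.5. Fold changes on this scale understate changes of genes with few reads. edgeR, DESeq2 1.42.0 and other filters and pseudocounts were alternatives. On simulated data for this comparison (17038 genes, 200 changed) limma recovered 99% of 2-fold and 100% of 4-fold changes with 2 false calls. The changed genes were drawn only from those above a minimum mean level, so this recovery does not cover genes with few reads. They were also fewer than the 2623 genes called in the data.

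The genes and lists were chosen with earlier results of these data known. Named are the 10 genes, called or defining list members, Smad2, Smad3, and the 3 genes most like H19 and Igf2; some genes that this rule selects are not reported here. Positions are those of GENCODE vM21 transcripts matched to RefSeq identifiers (GRCm38.p6). Replicates of the same genotype differed by 3.44 to 5.64 times the variance that sampling gives if each read is independent. Counting both mates of a pair would raise this figure.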

Additional observations from a re-analysis of the deposited data

How the results depend on the processing

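Igf2 was the sole gene called among the 7 tested genes other than H19 and Mir675, in the main test and in all alternatives except that with no fold threshold, where 5 passed. The number of changed genes was 2623, and became 1202 when genes had to average 100 normalized reads or more, 9098 with no fold threshold and 1115 when tested against a fold of 1.5. The construction of these settings (fewer genes, or another threshold) sets these counts. Leaving out 1 replicate at a time gave 2529 to 2610 changed genes and 1 called gene among the 7 each time. Over the alternatives run, no log2 fold change among these genes changed sign. That of H19 ranged from 5.61 to 5.80, that of Mir675 from 4.72 (pseudocount 10) to 6.15 and that of Igf2 from 2.75 to 3.08.

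Same-numbered replicates of the 2 genotypes did not deviate together (correlations 0.01, -0.03 and 0.04 over 11930 genes), so the numbers were not taken as pairs. With a replicate block 2602 genes were called in place of 2623 and Igf2 kept its call (adjusted p = 5.02e-16). Among list genes, Tbx6 lost its call with the block.

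With 1 line per genotype, p-values measure the spread between differentiations and not between lines. Igf1 and the WT levels of Tnnt3, at 10 reads or fewer per library, and of Mir675, at 6 to 19, are limited by depth.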

Other observations

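The stretch of chromosome 7 around H19 was looked at after the values of its genes had been seen. Within 1 Mb on either side of the H19 start, and without H19, Mir675 and Igf2, there were 44 genes, of which 29 were tested. Of these 9 were called higher and 0 lower, or 31.0% higher beside 7.35% of all genes tested. The median log2 fold change was 0.16. Called were Syt8, Tnni2, Lsp1, Prr33, Tnnt3, Igf2os, Th, Ascl2 and Tspan32. Prr33, which is in no list, went from 1.48 to 11.2 mean normalized reads. Genes of this stretch are not independent of each other, and the share was not tested.

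Ascl2 lies in the imprinted domain that is controlled by the non-coding RNA Kcnq1ot1, and Tspan32 lies next to Ascl2. Kcnq1ot1 itself averaged 2453 normalized reads in the WT libraries and 2737 in the DKO libraries, and was not called. The growth inhibitor Cdkn1c (1814 and 1442) and the placental gene Phlda2 (396 and 297) had log2 fold changes of -0.33 and -0.42 and were not called either. These genes were also chosen after their values were seen.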
